A study of Mus musculus with 12 samples.

Results

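The calcitonin and CGRP receptor family of the mouse was followed through the hypothalamus, which governs feeding, body temperature and hormone release. The 5 members were the 3 receptor activity-modifying protein genes Ramp1, Ramp2 and Ramp3, the calcitonin receptor gene Calcr and the calcitonin receptor-like receptor gene Calcrl. They were found by symbol among 78334 gene IDs of the count table, and all 5 were among the 25562 genes that passed the filter on low counts. The family was chosen by a measured value: Ramp1 had the 12th smallest p of all genes tested in diabetes against control, and the other 4 were added as its receptor partners and paralogs. For that reason the diabetes against control values of all members, and the Ramp1 values in every contrast that uses diabetes or control libraries, are given as descriptions without a test.

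Receptor activity-modifying proteins (RAMPs) are small membrane proteins with a single transmembrane pass that join a receptor and set which peptide it binds. Calcrl with Ramp1 forms the receptor for CGRP, a peptide of sensory neurons that widens blood vessels, and Calcrl with Ramp2 or Ramp3 forms receptors for adrenomedullin, a peptide of the vascular wall. Calcr alone binds calcitonin, and Calcr with a RAMP binds amylin, the beta-cell peptide that lowers food intake through the brain. These receptors signal mainly through the Gs protein and cyclic AMP.

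Poly-A RNA of 12 hypothalamus samples from male C57BL/6 mice was sequenced, with 3 libraries of diabetic mice given curcumin, 2 of diabetic mice given aged garlic extract, 4 of diabetic mice given vehicle and 3 of control mice given vehicle, called the curcumin, garlic, diabetes and control libraries. Diabetes was made with 70 mg/kg of streptozotocin, which kills pancreatic beta cells, injected 2 days after birth, and a diet with 60% of its energy from fat, fed for 8 weeks from 3 weeks of age. Curcumin, a polyphenol of turmeric, was given at 50 mg/kg and the garlic extract at 200 mg/kg, each by gavage every day for 28 days. Neither the toxin nor the diet is given for control, so their effects cannot be told apart, and the start of gavage is given both as diet week 7 and as after 11 weeks of diet. Libraries carry replicate numbers but no animal names, so the spread between libraries may be partly technical.

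Library totals ran from 12950017 to 30271706 counts. Levels are in CPM, counts scaled by the TMM-adjusted library total, and 3 counts correspond to between 0.106 and 0.261 CPM, depending on the library. Curcumin replicate 2 stood apart: 6 of 20 hypothalamus markers were at 0 there, their summed level was 56.6 CPM against 464 to 4317 CPM in the other 11 libraries, and the hypothalamic transcription factor gene Nkx2-1 was at 0.0497 CPM against 28.6 to 56.8 CPM. Diabetes replicate 4 held 857 CPM of anterior pituitary markers, against at most 15.3 CPM in any other library. Member changes that turn on these libraries, levels per length, shares and pathway list counts are also given without them. In bulk tissue, fewer cells of a type and less RNA per cell cannot be told apart.

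Ramp1, the accessory protein of the CGRP receptor, was the most abundant member per kilobase of exon in every group, and its level was highest in the diabetes libraries. It measured 46.0, 99.0 and 75.8 CPM in the 3 curcumin libraries, 50.7 and 67.2 CPM in the 2 garlic libraries, 151, 115, 216 and 186 CPM in the 4 diabetes libraries and 56.7, 73.7 and 35.3 CPM in the 3 control libraries. All 4 diabetes libraries lay above all 8 others, and the curcumin, garlic and control libraries overlapped. Group means were 73.6 ± 26.6 CPM with curcumin (SD, n = 3), 59.0 ± 11.7 CPM with garlic extract (SD, n = 2), 167 ± 43.7 CPM in diabetes (SD, n = 4) and 55.2 ± 19.2 CPM in control (SD, n = 3).

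**Figure D1:**
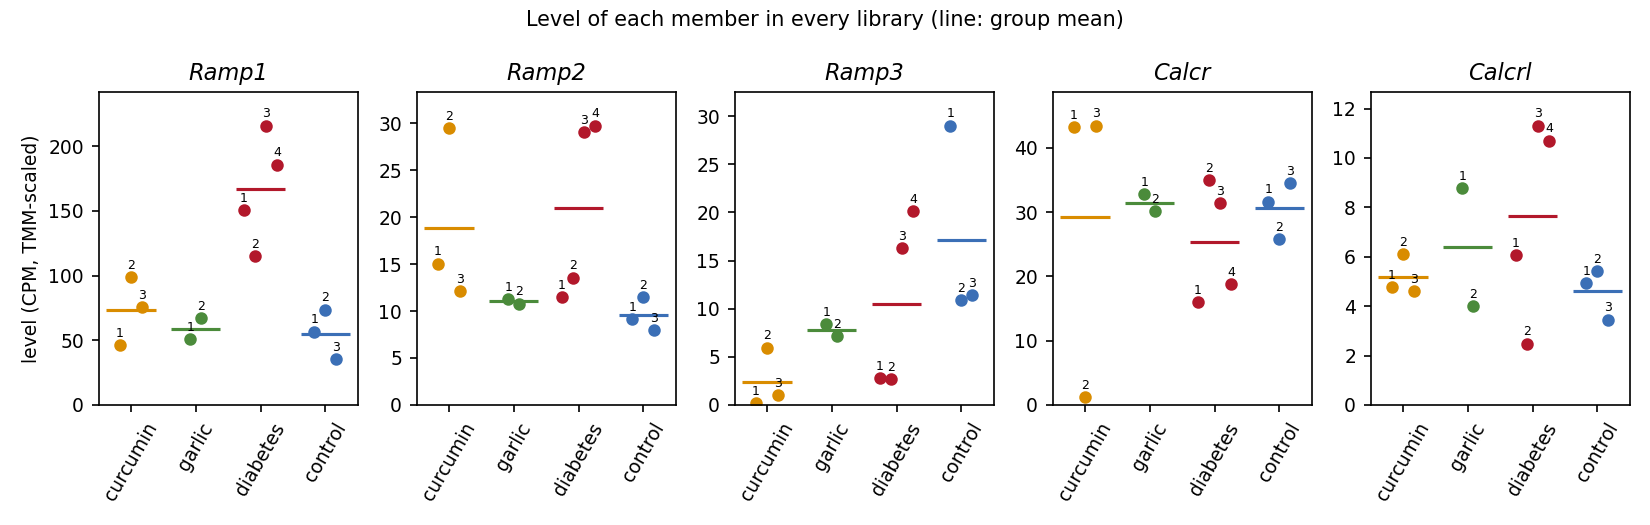
Level of each member in every library (CPM, each panel with its own linear axis from 0); points are libraries with their replicate numbers, horizontal lines are group means, and groups run curcumin, garlic, diabetes, control. The Ramp1 points of the diabetes libraries lie above those of all other groups, all 3 Ramp3 points of the curcumin libraries lie below the garlic and control points but 1 of them lies above 2 diabetes points, and 1 curcumin point for Calcr lies at 1.24 CPM.

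Because the promoter of Ramp1 precedes the member that chose the family and that of Ramp3 precedes the member that varied most between libraries, the windows from 250 bases before to 50 bases after the annotated start of both are shown from RefSeq on GRCm38.p6. They are at chr1:91179572-91179871 and chr11:6658283-6658582, both on the plus strand, whereas the counts were made on GRCm39. Capitals mark GC boxes (GGGCGG on either strand), the motif of Sp1 family factors.
Ramp1: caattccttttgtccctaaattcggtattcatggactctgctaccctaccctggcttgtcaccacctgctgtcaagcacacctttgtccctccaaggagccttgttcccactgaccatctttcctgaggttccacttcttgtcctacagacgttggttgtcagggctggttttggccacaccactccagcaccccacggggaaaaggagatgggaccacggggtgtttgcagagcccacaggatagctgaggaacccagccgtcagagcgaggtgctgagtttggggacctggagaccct
Ramp3: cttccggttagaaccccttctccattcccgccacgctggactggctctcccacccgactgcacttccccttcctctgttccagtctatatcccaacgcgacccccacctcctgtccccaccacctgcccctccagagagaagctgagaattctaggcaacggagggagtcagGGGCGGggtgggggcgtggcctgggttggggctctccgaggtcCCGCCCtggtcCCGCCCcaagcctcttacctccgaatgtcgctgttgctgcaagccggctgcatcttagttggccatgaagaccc
The Ramp3 window holds 3 GC boxes and the Ramp1 window holds 0. GC content was 55.7% for Ramp1 and 63.7% for Ramp3, against a median of 52.7% over 32851 mouse promoter windows, and the CpG observed-to-expected ratio was 0.26 for Ramp1 and 0.513 for Ramp3, against a median of 0.384. The core of the cAMP response element (TGACG, either strand) occurred 1 time in the Ramp1 window and was not found in the Ramp3 window. An AP-1 site (TGANTCA, either strand) and a TATA core (TATAAA, either strand) were found in neither.

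Of all windows, 35.7% hold a GC box, 20.8% the cAMP response element core, 7.81% the AP-1 site and 13.6% the TATA core. Windows were matched for 4 of the 5 members, and Ramp2 had none. Calcrl, on chromosome 2, has a window of 50.7% GC with 1 GC box. Calcr, on chromosome 6, has 2 windows, of 70% GC with 1 GC box and 2 cAMP response element cores, and of 47.3% GC with 1 such core. A motif match describes these letters and is not a measured site, and no match says nothing about a factor.

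Set against control, the diabetes libraries had 3.02 times the mean Ramp1 level, a log2 change of 1.60 ± 0.31 (SE, edgeR). Ramp2, an accessory protein of the adrenomedullin receptors that blood vessels need to develop, had 2.20 times the control mean in the diabetes libraries (log2 change 1.13 ± 0.41). The other members had log2 changes of -0.72 ± 0.80 for Ramp3, -0.28 ± 0.61 for Calcr and 0.73 ± 0.56 for Calcrl. Since the family was chosen on this contrast, nothing is read from these counts: 0 of 5 members passed an edgeR adjusted p of 0.05, as did 0.0156% of all genes tested. DESeq2 and limma-voom each called Ramp1. DESeq2 called 528 of the 10187 genes to which it gave an adjusted p (5.18%), which left out Ramp3 and Calcrl. The limma-voom fit called 1177 of 25562 genes (4.6%). Ramp1 and Ramp2 were among the 12.3% of genes with an unadjusted edgeR p under 0.05. Ramp1 was the only member with every diabetes library above every control library, which held for 5.78% of genes.

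Curcumin and diabetes libraries did not overlap for Ramp1, with a log2 change of -1.18 ± 0.30 (SE) against diabetes. Nor did garlic and diabetes libraries, with a log2 change of -1.50 ± 0.35 (SE). Both contrasts use the diabetes libraries on which Ramp1 was chosen, so neither supports the other or the choice itself. Leaving out curcumin replicate 2 and diabetes replicate 4 gave -1.39 for curcumin against diabetes, -1.41 for garlic against diabetes and 1.53 for diabetes against control.

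Against control, Ramp1 had log2 changes of 0.41 ± 0.31 (SE) with curcumin and 0.09 ± 0.35 (SE) with garlic extract, and the libraries of both overlapped control. Curcumin against garlic uses neither diabetes nor control libraries in its difference and was tested for all 5 members. There Ramp1 had a log2 change of 0.32 ± 0.35 (SE; 95% interval -0.37 to 1.01; edgeR adjusted p = 1), and -0.0024 without curcumin replicate 2.

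The summed level of 18 genes for subunits of the mitochondrial respiratory chain and ATP synthase was highest in the libraries highest for Ramp1. Their sum was 1163, 3795 and 1869 CPM in the curcumin libraries, 1538 and 2334 CPM in the garlic libraries, 4306, 3254, 6074 and 5725 CPM in the diabetes libraries and 2037, 2084 and 2166 CPM in the control libraries. The highest Ramp1 library, diabetes replicate 3, had the highest sum. Curcumin replicate 2, the highest curcumin library for Ramp1, had a sum above that of diabetes replicate 2. Within control the order differed, since control replicate 3, the lowest of all libraries for Ramp1, had the highest control sum. The number of genes expected at the depth of the smallest library ran from 20917 to 29126 with curcumin, 33125 to 34719 with garlic extract, 20133 to 22515 in diabetes and 25766 to 33157 in control. Markers of blood summed to 122, 504 and 127 CPM in the curcumin libraries, 115 and 154 CPM in the garlic libraries, 264, 469, 406 and 1755 CPM in the diabetes libraries and 128, 87.5 and 196 CPM in the control libraries. All diabetes libraries lay above all control libraries for blood markers, and curcumin replicate 2, high for Ramp1 and Ramp2, was also high. The part of any of these in the Ramp1 and Ramp2 differences was not tested.

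The genes whose levels were most like Ramp1 across the 12 libraries, among 13769 named genes that averaged at least 1 CPM, were Cst3, Ech1 and Sdhb. Cst3, which encodes the protease inhibitor cystatin C, had a Pearson r of 0.994 and a Spearman rho of 0.979. Ech1, an enzyme of fatty acid oxidation, had an r of 0.982, and Sdhb, a subunit of succinate dehydrogenase, an r of 0.974. These correlations are of log2 CPM, include the differences between groups, library depth and composition, and are descriptions without a p.

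Ramp2 was spread within the curcumin and diabetes groups. It measured 15.1, 29.5 and 12.1 CPM in the curcumin libraries, 11.3 and 10.8 CPM in the garlic libraries, 11.5, 13.6, 29.1 and 29.8 CPM in the diabetes libraries and 9.16, 11.5 and 7.98 CPM in the control libraries. Diabetes replicates 3 and 4 and curcumin replicate 2 were high, and the remaining 9 libraries lay between 7.98 and 15.1 CPM. Means were 18.9 ± 9.31 CPM with curcumin (SD, n = 3), 11.0 ± 0.326 CPM with garlic extract (SD, n = 2), 21.0 ± 9.79 CPM in diabetes (SD, n = 4) and 9.54 ± 1.79 CPM in control (SD, n = 3).

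No contrast of Ramp2 passed the edgeR test. Against diabetes, its log2 change was -0.15 ± 0.39 (SE; 95% interval -0.92 to 0.62; adjusted p = 0.910) with curcumin. With garlic extract against diabetes it was -0.93 ± 0.46 (SE; 95% interval -1.83 to -0.02; adjusted p = 0.490), with both garlic libraries just below the lowest diabetes library. That interval, like every 95% interval given here, is based on the normal distribution and is too narrow. The unadjusted edgeR p of this contrast was 0.0612. All 3 curcumin libraries lay above the control libraries (log2 change 0.98 ± 0.42, SE; 95% interval 0.15 to 1.82; adjusted p = 1) and above the garlic libraries (0.78 ± 0.48, SE; adjusted p = 1). Garlic against control gave 0.21 ± 0.47 (SE; adjusted p = 1). Without curcumin replicate 2, the change against control was 0.48.

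Endothelial cells, a main site of Ramp2 in many tissues, were followed by 12 markers. Their sum was 263, 508 and 164 CPM in the curcumin libraries, 277 and 180 CPM in the garlic libraries, 95.03, 155, 84.3 and 244 CPM in the diabetes libraries and 122, 102 and 154 CPM in the control libraries. Curcumin replicate 2 was high for both Ramp2 and the markers, while diabetes replicate 3 was high for Ramp2 and had the lowest marker sum of all 12. All 12 markers had counts in every library but diabetes replicate 1, where Kdr was at 0. The part of endothelial cells in the Ramp2 differences was not tested.

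The counts of Ramp2 have a limit of annotation, since a transcript of Vps25, an endosomal sorting gene on the same strand, overlaps it in GENCODE M21. Vps25 itself stood between 0 and 3.29 CPM. The most similar genes to Ramp2 were Ctsa, a lysosomal carboxypeptidase (r = 0.926, rho = 0.664), Prdx6, a peroxiredoxin (r = 0.910, rho = 0.748), and H2-K1, a class I histocompatibility gene (r = 0.899, rho = 0.867), over the same 12 libraries and 13769 genes.

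Ramp3, an accessory protein of the adrenomedullin and amylin receptors, had its lowest levels in the curcumin libraries. It measured 0.189, 5.96 and 0.991 CPM in the curcumin libraries, 8.42 and 7.16 CPM in the garlic libraries, 2.79, 2.65, 16.3 and 20.1 CPM in the diabetes libraries and 29.0, 10.9 and 11.4 CPM in the control libraries. The curcumin values rest on 4, 120 and 20 counts, and curcumin replicate 2 was the high one. Curcumin libraries all lay below the garlic and control libraries but overlapped the diabetes libraries, which themselves fell into a low pair and a high pair. Means were 2.38 ± 3.13 CPM with curcumin (SD, n = 3), 7.79 ± 0.890 CPM with garlic extract (SD, n = 2), 10.5 ± 9.07 CPM in diabetes (SD, n = 4) and 17.1 ± 10.3 CPM in control (SD, n = 3).

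The curcumin contrasts of Ramp3 did not pass the test with all 12 libraries. Against diabetes the log2 change was -2.13 ± 0.87 (SE; 95% interval -3.84 to -0.42; edgeR adjusted p = 0.230), and against control it was -2.85 ± 0.93 (SE; 95% interval -4.66 to -1.03; adjusted p = 1, unadjusted p = 0.00646). Curcumin against garlic gave -1.71 ± 0.97 (SE; 95% interval -3.60 to 0.18; adjusted p = 1), and -3.76 without curcumin replicate 2 (adjusted p = 0.221). Garlic contrasts gave -0.42 ± 0.93 (SE; adjusted p = 1) against diabetes and -1.14 ± 1.00 (SE; adjusted p = 1) against control, where both garlic libraries lay below all 3 control libraries.

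Curcumin replicate 2, the library that lacked hypothalamic markers, moved the Ramp3 contrast with diabetes across the threshold. Without it the log2 change was -4.08 with an edgeR adjusted p of 0.0156, in a fit that called 1975 genes in all against 23 with the library, and without it and diabetes replicate 4 it was -3.57 with an adjusted p of 0.0428. With the library kept, the call was also made without the low-count filter (-2.11, adjusted p = 0.00403). It was made too with the number of detected genes as a covariate (-4.02, adjusted p = 0.0497). That number was 29126 in curcumin replicate 2, against 20917 and 22337 in the other curcumin libraries and 20133 to 22515 in diabetes. In this contrast the covariate thus mainly sets that library apart, and its result is no separate support. Over the other settings the adjusted p ran up to 0.568. Against control, the change without curcumin replicate 2 was -4.88 with an adjusted p of 0.0572, and without the low-count filter it was -2.87 with an adjusted p of 0.000482.

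Ramp3 is known from thalamus and habenula as well as from parts of the hypothalamus, so 8 markers of those neighbouring regions are set beside it. They summed to 139.7, 532 and 152 CPM in the curcumin libraries, 171 and 147 CPM in the garlic libraries, 103, 104, 122 and 135 CPM in the diabetes libraries and 430, 184 and 212 CPM in the control libraries. The highest Ramp3 library, control replicate 1, had the second highest sum, the highest curcumin library for Ramp3 had the highest, and the 2 low diabetes libraries had the lowest. Diabetes replicates 4 and 3, the second and the third highest for Ramp3, had low sums, so the sums do not order the libraries by Ramp3. Gbx2 and Pou4f1, a thalamic and a habenular transcription factor, were both at 0 in diabetes replicates 1 and 2 and in curcumin replicate 1, and Pou4f1 alone in 4 further libraries. Of the 532 CPM in curcumin replicate 2, the marker Tcf7l2 alone made up 325 CPM. The highest values of single markers went both ways between curcumin and control. Pou4f1 reached 18.9 CPM in curcumin replicate 2 and 1.10 CPM in control, and was at 0 in curcumin replicates 1 and 3. Gbx2 reached 0.595 CPM with curcumin and 8.11 CPM in control, and Prkcd 18.2 and 91.9 CPM. Curcumin replicates 1 and 3, the lowest libraries for Ramp3, had marker sums below every control library. Every diabetes library had a lower sum still. The part of neighbouring tissue in the Ramp3 differences was not tested.

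Gm11978, a gene model antisense to Ramp3, had 0 counts in all 12 libraries. The most similar genes to Ramp3 were Slc16a9, a monocarboxylate transporter family member (r = 0.905, rho = 0.755), Ppp1r2, a protein phosphatase inhibitor (r = 0.896, rho = 0.811), and Spata9 (r = 0.893, rho = 0.832).

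Calcr, the calcitonin receptor and the core of the amylin receptors, measured 43.2, 1.24 and 43.5 CPM in the curcumin libraries, 32.8 and 30.1 CPM in the garlic libraries, 15.97, 35.0, 31.4 and 18.8 CPM in the diabetes libraries and 31.6, 25.8 and 34.5 CPM in the control libraries. Curcumin replicate 2, with 25 counts, was far below all 11 other libraries, and curcumin replicates 1 and 3 were the highest of all. The remaining groups overlapped. Means were 29.3 ± 24.3 CPM with curcumin (SD, n = 3), 31.5 ± 1.92 CPM with garlic extract (SD, n = 2), 25.3 ± 9.33 CPM in diabetes (SD, n = 4) and 30.7 ± 4.44 CPM in control (SD, n = 3).

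None of the Calcr contrasts passed, and the intervals are wide. The log2 change with curcumin was 0.21 ± 0.61 (SE; 95% interval -0.98 to 1.41; edgeR adjusted p = 0.920) against diabetes and -0.07 ± 0.65 (SE; adjusted p = 1) against control. Garlic extract gave 0.32 ± 0.68 (SE; 95% interval -1.02 to 1.66; adjusted p = 1) against diabetes and 0.04 ± 0.73 (SE; adjusted p = 1) against control. Curcumin against garlic gave -0.10 ± 0.73 (SE; adjusted p = 1). Without curcumin replicate 2, the curcumin changes were 0.81 against diabetes, 0.46 against control and 0.41 against garlic, and none of them passed.

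Hypothalamus markers stand beside Calcr because 1 library was low in both. The 20 markers summed to 464, 56.6 and 1054 CPM in the curcumin libraries, 706 and 1928 CPM in the garlic libraries, 1563, 3064, 1917 and 4317 CPM in the diabetes libraries and 1294, 1822 and 1771 CPM in the control libraries. Curcumin replicate 2 was lowest for Calcr and for the markers. Over the other 11 libraries, the highest marker sum, in diabetes replicate 4, went with the second lowest Calcr level. Diabetes replicate 4 also held 857 CPM of anterior pituitary markers. Peptide genes weigh heavily on these sums: in the diabetes group, Avp reached 1846 CPM, Pomc 1089 CPM and Oxt 939 CPM. In curcumin replicate 2, Fezf1, Hcrt, Hmx2, Hmx3, Nkx2-4 and Six6 were at 0, whereas in the other libraries only Agrp, the gene of a hunger-promoting peptide, was at 0, in 6 of them. The part of the dissected region in the Calcr values was not tested.

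Genes most similar to Calcr were Gabrg3, a subunit of the GABA-A receptor (r = 0.984, rho = 0.881), Dlk1, a membrane protein related to Notch ligands (r = 0.981, rho = 0.895), and Fndc9 (r = 0.965, rho = 0.832). All 3 Pearson values include curcumin replicate 2, whose Calcr level lies far from the rest. The microRNA genes Mir653 and Mir489 lie within Calcr on the same strand and had 0 counts in all libraries.

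**Figure D2:**
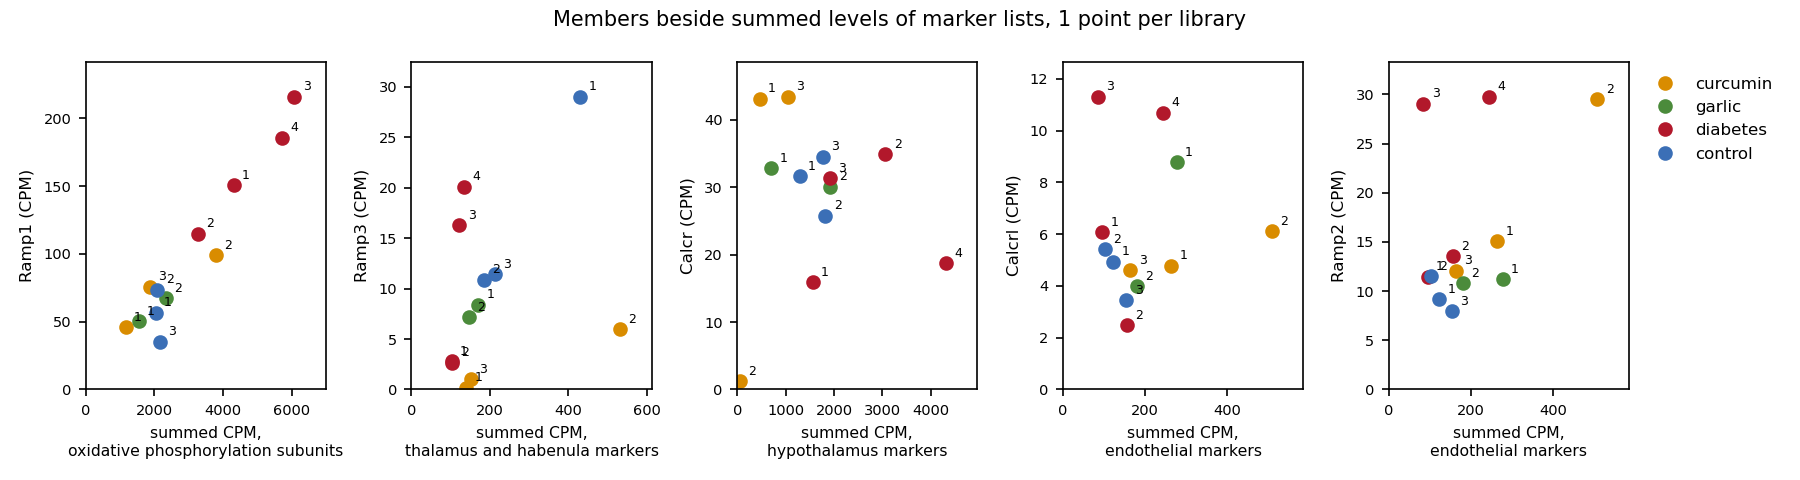
Members against the summed level of a marker list (both CPM, linear axes from 0), 1 point per library with its replicate number and the colour of its group. Ramp1 and the respiratory chain sum are both highest in diabetes replicate 3, and Calcr and the hypothalamus sum are both lowest in curcumin replicate 2, at 1.24 and 56.6 CPM.

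Calcrl, the receptor shared by CGRP and adrenomedullin, was the least abundant member per kilobase of exon in every group mean over all libraries. It measured 4.78, 6.11 and 4.61 CPM in the curcumin libraries, 8.77 and 4.00 CPM in the garlic libraries, 6.08, 2.48, 11.3 and 10.7 CPM in the diabetes libraries and 4.94, 5.42 and 3.45 CPM in the control libraries. Diabetes replicates 3 and 4, the same libraries that were high for Ramp2, were the highest, and every pair of groups overlapped. Means were 5.17 ± 0.820 CPM with curcumin (SD, n = 3), 6.39 ± 3.37 CPM with garlic extract (SD, n = 2), 7.64 ± 4.16 CPM in diabetes (SD, n = 4) and 4.60 ± 1.03 CPM in control (SD, n = 3).

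Calcrl passed in no contrast. Against diabetes, the log2 change was -0.56 ± 0.56 (SE; 95% interval -1.66 to 0.53; edgeR adjusted p = 0.690) with curcumin and -0.26 ± 0.63 (SE; 95% interval -1.49 to 0.98; adjusted p = 1) with garlic extract. Against control it was 0.17 ± 0.59 (SE; adjusted p = 1) with curcumin and 0.47 ± 0.66 (SE; adjusted p = 1) with garlic extract, and curcumin against garlic gave -0.31 ± 0.66 (SE; adjusted p = 1). The genes most like it were Glod4 (r = 0.867, rho = 0.888), Rassf1, a Ras-association domain gene (r = 0.864, rho = 0.916), and Taf5, a subunit of the general transcription factor TFIID (r = 0.857, rho = 0.874).

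**Figure D3:**
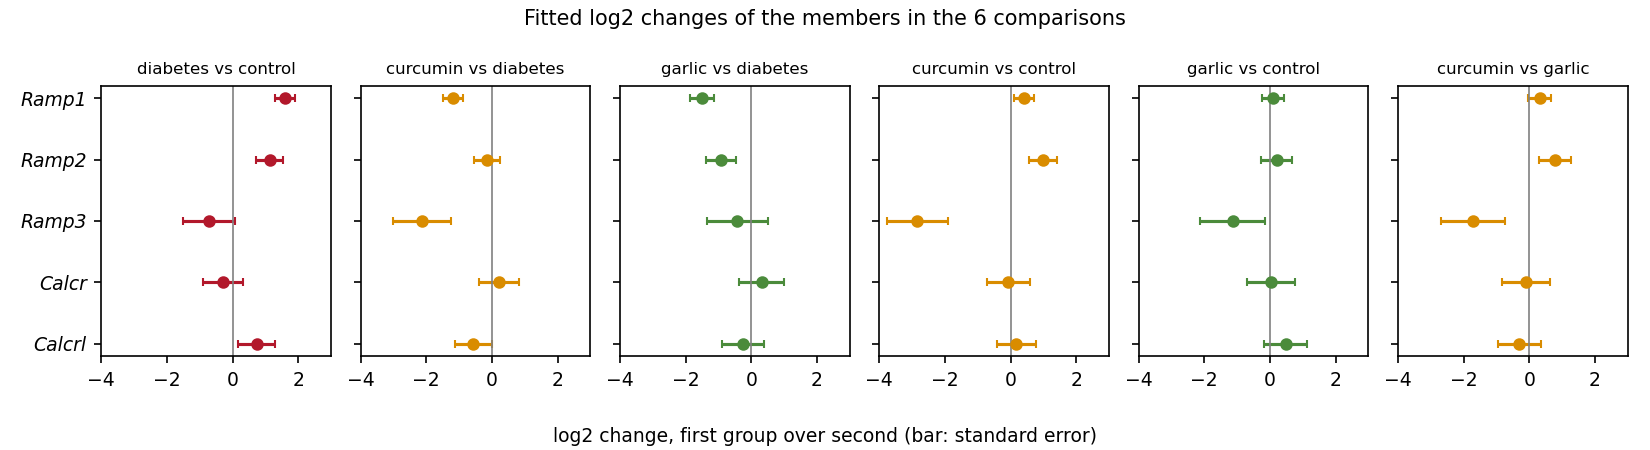
Log2 change of each member in the 6 contrasts from 1 edgeR fit of all 12 libraries, with 1 SE as a bar and the group named first over the group named second (linear axes). Ramp1 lies at 1.60 in diabetes against control, at -1.18 and -1.50 in curcumin and garlic against diabetes, and Ramp3 lies below 0 in all 6 contrasts, from -2.85 to -0.42.

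Over the 5 members, the counts called stood as follows against the background of all genes. Calls of Ramp1 in contrasts that use diabetes or control libraries are listed to complete the counts and are no test of Ramp1, since it was chosen on those libraries. In curcumin against diabetes, 0 of 5 members passed the edgeR adjusted test, as did 0.09% of genes, DESeq2 called Ramp1 and 4.66% of genes, and limma-voom called 0 members and 0.481% of genes. Unadjusted p-values under 0.05 were found for Ramp1 and Ramp3 and for 17.2% of genes, and Ramp1 alone was lower in every curcumin library than in any diabetes library, as were 4.19% of genes. In garlic against diabetes, edgeR called 0 members and 0% of genes, and limma-voom called Ramp1 and 1.68% of genes. DESeq2 called Ramp1 and 4.7% of the 9197 genes to which it gave an adjusted p, and Ramp2, Ramp3 and Calcrl were not among these. Unadjusted p-values under 0.05 were found there for Ramp1 and for 10.9% of genes, and Ramp1 and Ramp2 were lower without overlap, as were 7.52% of genes.

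The 3 remaining contrasts had few calls. In curcumin against control, edgeR called 0 members and 0% of genes, limma-voom 0 members and 0% of genes, and DESeq2 0 members and 0.0199% of genes. Ramp2 and Ramp3 were among the 2.34% of genes with an unadjusted p under 0.05, Ramp2 was higher without overlap, as were 2.82% of genes, and Ramp3 was lower without overlap, as were 5.84%. In garlic against control, edgeR, DESeq2 and limma-voom each called 0 members and 0% of genes, unadjusted p-values under 0.05 were found for 0 members and 0.11% of genes, and Ramp3 was lower without overlap, as were 6.11% of genes. In curcumin against garlic, edgeR and limma-voom called 0 members and 0% of genes, and DESeq2 called 0 members and 0.0278% of genes. Unadjusted p-values under 0.05 were found there for 0 members and 1.6% of genes, while Ramp2 was higher without overlap, as were 4.21% of genes, and Ramp3 was lower without overlap, as were 9.91%.

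Levels of different members are compared per kilobase of exon, with exon union lengths of 3022 bases for Ramp1, 3301 for Ramp2, 1380 for Ramp3, 3912 for Calcr and 4882 for Calcrl. Ramp1 was first in every group, at 24.4 ± 8.80 CPM per kb with curcumin (SD, n = 3), 19.5 ± 3.87 with garlic extract (SD, n = 2), 55.2 ± 14.5 in diabetes (SD, n = 4) and 18.3 ± 6.37 in control (SD, n = 3). Calcrl was last in every group with all libraries, at 1.06 ± 0.168, 1.31 ± 0.691, 1.57 ± 0.852 and 0.942 ± 0.211 CPM per kb in curcumin, garlic, diabetes and control libraries.

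The members between them changed places with the group. With curcumin, Calcr (7.49 ± 6.21 CPM per kb) was followed by Ramp2 (5.72 ± 2.82) and Ramp3 (1.72 ± 2.26), and with garlic extract Calcr (8.05 ± 0.491) was followed by Ramp3 (5.64 ± 0.645) and Ramp2 (3.34 ± 0.0987). In diabetes the order was Ramp3 (7.58 ± 6.57), Calcr (6.46 ± 2.38) and Ramp2 (6.35 ± 2.97), and in control Ramp3 (12.4 ± 7.48), Calcr (7.84 ± 1.14) and Ramp2 (2.89 ± 0.542). Neighbours among these 3 in diabetes differed by less than the larger SD of the pair, as did Calcr and Ramp2 with curcumin, Ramp3 and Calcrl with curcumin, and neighbours among Ramp1, Ramp3 and Calcr in control. Lengths weigh on this order: with coding lengths of 444, 567, 441, 1599 and 1389 bases for Ramp1, Ramp2, Ramp3, Calcr and Calcrl, Ramp1 was still first in every group, but 7 of the 20 ranks moved, and Ramp2 came second in diabetes and with curcumin. Without curcumin replicate 2, the curcumin levels were 20.1 CPM per kb for Ramp1, 11.1 for Calcr, 4.11 for Ramp2, 0.962 for Calcrl and 0.428 for Ramp3, so Ramp3 and not Calcrl was last. Without diabetes replicate 4, the diabetes levels were 53.2 for Ramp1, 7.02 for Calcr, 5.47 for Ramp2, 5.24 for Ramp3 and 1.36 for Calcrl.

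The make-up of the RAMP transcripts varied between groups. Ramp1 made up 76.4, 71.2 and 85.1% of the summed RAMP level per kb in the curcumin libraries, 63.8 and 72.5% in the garlic libraries, 90.1, 86.3, 77.6 and 72.3% in the diabetes libraries and 44.1, 68.2 and 52.2% in the control libraries. On this scale every diabetes and every curcumin library lay above every control library, and the garlic libraries overlapped control. Per kb of coding length, curcumin replicate 2 (77.3%) lay below control replicate 2 (78.7%), so the curcumin and control libraries overlapped, while the diabetes libraries (81.0 to 92.7%) still lay above control. Mean shares were 77.6 ± 7.04% with curcumin (SD, n = 3), 68.1 ± 6.11% with garlic extract (SD, n = 2), 81.6 ± 8.10% in diabetes (SD, n = 4) and 54.8 ± 12.3% in control (SD, n = 3).

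Ramp3 took the larger part of the remainder in control. Its share was 4.17 ± 4.60% with curcumin (SD, n = 3), 20.1 ± 4.46% with garlic extract (SD, n = 2), 9.48 ± 6.58% in diabetes (SD, n = 4) and 36.2 ± 13.7% in control (SD, n = 3). Per kb of coding length these shares were 2.06, 10.6, 4.76 and 21.6% in the curcumin, garlic, diabetes and control libraries. With curcumin replicate 2 and diabetes replicate 4 left out, the Ramp3 share per kb of exon was 1.56% with curcumin and 6.93% in diabetes, and the Ramp1 share was 80.8% with curcumin and 84.7% in diabetes. The shares rest on Ramp1, whose level chose the family, and are given without a test.

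**Figure D4:**
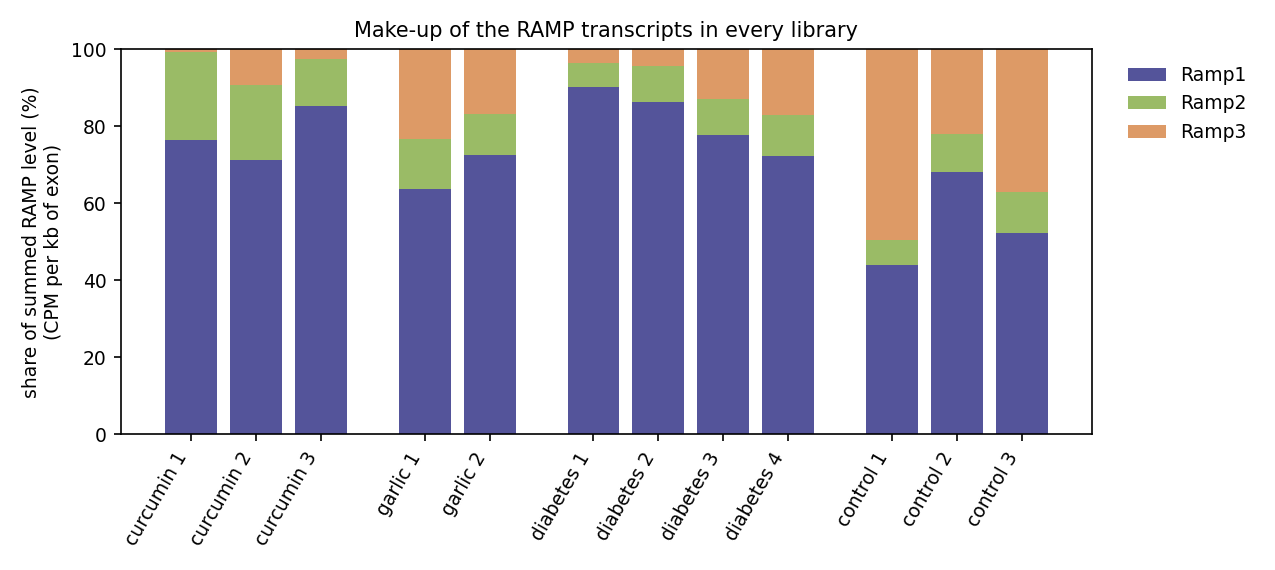
Share of Ramp1, Ramp2 and Ramp3 in the summed RAMP level per kb of exon (%, stacked to 100), 1 bar per library, in the order curcumin, garlic, diabetes, control. Ramp1 is the largest part in 11 of 12 libraries, and Ramp3 is the largest in control replicate 1, where per kb of coding length Ramp1 is the largest too (60.9% against 31.4% for Ramp3).

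Accessory proteins outweighed receptors at the transcript level in every library. The summed RAMP level over the summed level of Calcr and Calcrl, both per kb, was 1.66, 29.3 and 2.44 in the curcumin libraries, 2.58 and 3.60 in the garlic libraries, 10.4, 4.67, 8.90 and 12.2 in the diabetes libraries and 4.68, 4.64 and 2.35 in the control libraries. Curcumin replicate 2 was the highest, with Calcr, in the divisor, at 1.24 CPM. Among the other 11 libraries, 3 of the 4 diabetes libraries were the highest, and diabetes replicate 2 lay beside control replicates 1 and 2.

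Of the peptides that bind these receptors, Calca was the only one with a measurable level in every library. Calca encodes both calcitonin and alpha-CGRP by alternative splicing, which counts per gene cannot tell apart. It measured 0.237, 2.43 and 6.79 CPM in the curcumin libraries, 3.15 and 5.53 CPM in the garlic libraries, 2.47, 9.97, 9.57 and 8.17 CPM in the diabetes libraries and 4.90, 1.49 and 3.90 CPM in the control libraries. Diabetes replicates 2, 3 and 4 were the highest of the 12, and diabetes replicate 1 lay within the range of the other groups.

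Calca passed in no contrast. Its log2 change was -1.26 ± 0.83 (SE; edgeR adjusted p = 0.480) in curcumin against diabetes, -0.80 ± 0.94 (SE; adjusted p = 0.958) in garlic against diabetes and 1.13 ± 0.82 (SE; adjusted p = 0.685) in diabetes against control. Single libraries moved the curcumin against diabetes value, to -2.49 without curcumin replicate 3 and -0.71 without curcumin replicate 1. The contrasts without diabetes libraries gave -0.12 ± 0.86 for curcumin against control, 0.34 ± 0.95 for garlic against control and -0.46 ± 0.95 for curcumin against garlic (SE; adjusted p = 1 in each).

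The other ligand genes had low counts, at most 50 in any library. Calcb, the gene of beta-CGRP, had 0, 12 and 0 counts in the curcumin libraries, 3 and 4 in the garlic libraries, 0, 0, 9 and 0 in the diabetes libraries and 6, 10 and 2 in the control libraries. Adm, the adrenomedullin gene, had 0, 42 and 0 counts in the curcumin libraries, 16 and 15 in the garlic libraries, 23, 0, 21 and 50 in the diabetes libraries and 29, 0 and 7 in the control libraries. Curcumin replicate 2 was the only curcumin library with counts of either gene. Adm2, the gene of intermedin, had 3 counts in garlic replicate 2 and 0 elsewhere, and Iapp, the amylin gene of pancreatic beta cells, had 0 counts in all 12 libraries.

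Such zeros allow a level of up to 3 counts in a library, and this floor covers counting error only. Of the 5 ligand genes, 3 passed the filter (Calca, Calcb and Adm), and edgeR and limma-voom each called 0 of them in all 6 contrasts, as did an unadjusted edgeR p of 0.05. DESeq2 called 0 of those to which it gave an adjusted p. It gave none to these 3 genes in diabetes against control and garlic against diabetes, nor to Calcb in curcumin against diabetes.

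Downstream of the receptors, the 22 genes of the Gs and cyclic AMP pathway included 0 that passed the edgeR adjusted test in any of the 6 contrasts. In curcumin against diabetes, 19 of the 22 had a log2 change above 0, with a median of 0.41 against 0.07 over all genes tested, and 7 had an unadjusted p under 0.05, as did 17.2% of all genes. In garlic against diabetes, 17 were above 0 with a median of 0.36 against 0.07, and 4 had an unadjusted p under 0.05, as did 10.9% of all genes. In diabetes against control, 4 were above 0 with a median of -0.34 against -0.07, and 3 had an unadjusted p under 0.05, a share near the 12.3% of all genes. These 3 contrasts share the diabetes libraries. With 2 libraries left out (curcumin replicate 2 and diabetes replicate 4), 0 passed in any contrast, and the 3 counts at an unadjusted p under 0.05 were 5, 5 and 4, with 23.7, 11.9 and 13.1% of all genes.

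Adcy1, the calcium-stimulated adenylyl cyclase, was the pathway gene that DESeq2 called in curcumin against diabetes and in diabetes against control, and limma-voom in the second of these, and it is named here after its values were seen. It measured 93.9, 115 and 44.2 CPM in the curcumin libraries, 82.9 and 31.7 CPM in the garlic libraries, 34.0, 17.5, 26.5 and 17.8 CPM in the diabetes libraries and 108, 67.3 and 45.2 CPM in the control libraries. All curcumin and control libraries lay above all diabetes libraries, as in 5.43% of genes for curcumin against diabetes and 8.94% for diabetes against control, and DESeq2 called 4.66% and 5.18% of genes in these contrasts. The edgeR adjusted p of Adcy1 was 0.0548 in curcumin against diabetes (log2 change 1.81 ± 0.38, SE) and 0.125 in diabetes against control (-1.62 ± 0.37, SE). It was 0.0706 and 0.161 without curcumin replicate 2 and diabetes replicate 4.

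The pathway genes with the highest CPM were Gnas and Prkar1b. Gnas, which encodes the Gs alpha subunit, averaged 2192 CPM with curcumin, 2365 with garlic extract, 2644 in diabetes and 2275 in control. Prkar1b, a regulatory subunit of protein kinase A, averaged 836, 699.6, 877 and 820.2 CPM in the curcumin, garlic, diabetes and control libraries.

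Among 13 genes for turnover and trafficking of these receptors and their peptides, which include peptidases, beta-arrestins and receptor kinases, 0 passed the edgeR adjusted test in any contrast. Unadjusted p-values under 0.05 were found for 3 in curcumin against diabetes and for 2 in diabetes against control, shares near the 17.2% and 12.3% of all genes, and for 0 in the other 4 contrasts. With the same libraries left out, 0 passed and these counts were 4 and 2, with 23.7 and 13.1% of all genes. In garlic against diabetes the count was then 1, with 11.9% of all genes. Nsf, an ATPase of vesicle fusion, had the highest mean CPM of them and measured 764, 908 and 481 CPM in the curcumin libraries, 646 and 471 CPM in the garlic libraries, 391, 371, 424 and 397 CPM in the diabetes libraries and 669.6, 634 and 471 CPM in the control libraries. Every diabetes library lay below every other library for Nsf, a separation found in 8.94% of genes in diabetes against control, 5.43% in curcumin against diabetes and 13.2% in garlic against diabetes. DESeq2 called it in curcumin against diabetes (adjusted p = 0.00911) and limma-voom in diabetes against control (adjusted p = 0.0422), while the edgeR adjusted p was 0.110 and 0.344 for the same contrasts. Arrb1, beta-arrestin 1, averaged 328 CPM with curcumin, 239 with garlic extract, 203 in diabetes and 252 in control.

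The 13 other class B receptor genes, among them the receptors for GLP-1, glucagon and corticotropin-releasing hormone, were a set of the same receptor class. Of them 11 passed the filter, and 0 passed edgeR, DESeq2 or limma-voom in any contrast. An unadjusted edgeR p under 0.05 was found for 1 of the 11, in curcumin against diabetes, and for 17.2% of all genes. By edgeR, 0 passed without curcumin replicate 2 and diabetes replicate 4 too. Adcyap1r1, the PACAP receptor and the gene of the class with the highest CPM, averaged 364 CPM with curcumin, 368 with garlic extract, 304 in diabetes and 364 in control. Glp1r, the GLP-1 receptor, averaged 15.6 CPM with curcumin, 14.9 with garlic extract, 18.9 in diabetes and 17.4 in control.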

How the data were processed

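The authors deposited 1 table of raw read counts per gene for all 12 libraries. They name FastQC and featureCounts with the GRCm39 genome, per the submitters' processing notes. Aligner, annotation and strand setting were not given in the sources used here, so reads of overlapping genes cannot be separated. No column was left unused (0 unused). Per the labels' protocols, paired reads of 150 bases came from a stranded poly-A kit and RNA with an integrity number above 7.

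Symbols, exon lengths and overlaps came from GENCODE M21 (GRCm38), which named 51486 of 78334 IDs. Groups came from the sample titles. Genes were filtered with filterByExpr by group, scaled by TMM and fitted over all 12 libraries with the quasi-likelihood test of edgeR 4.0.16 in R 4.3.3. Benjamini-Hochberg adjustment ran over 25562 genes, with a threshold of 0.05. DESeq2 gave an adjusted p to fewer genes, and its shares are over those genes only. They numbered 10187 in diabetes against control, 22725 in curcumin against diabetes, 9197 in garlic against diabetes and 25147 in the other contrasts. A gene without an adjusted p was counted as not called. The chi-square of any pair of libraries was at least 20.0 per degree of freedom. The common dispersion was 0.653. DESeq2 1.42.0, limma 3.58.1 (voom with library weights), other scalings, filters, a replicate block, a covariate and left-out libraries were alternatives. Of these steps, only the edgeR fit was tested on simulated counts, with known changes in diabetes against control.

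The members and gene lists were chosen with earlier results of these data known. The text names all members and ligands, the genes of the turnover, Gs and class B lists that passed edgeR (0) plus the 2 of highest mean CPM in each list, and per member the 3 genes with the highest Pearson r of log2 CPM (prior count 2) over named genes averaging at least 1 CPM. Adcy1 was named outside this rule, after its values were seen. List counts and Adcy1 and Nsf without curcumin replicate 2 and diabetes replicate 4, and RAMP shares by coding length, were also chosen after seeing the data.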

Additional observations from a re-analysis of the deposited data

Results flagged for a closer look

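In groups of 4 libraries, a value was set apart where its gap to the nearest other library was too large a part of the group's range by Dixon's 95% critical value. Only diabetes has 4 libraries. Of 41 quantities taken up there, 4 met this, and Adm2 and Iapp, at 0 in all diabetes libraries, could not meet it. Chance gives about 1 in 20 for independent quantities, but the RAMP shares among the 41 depend on each other. Calcb stood at 0.783 CPM, or 9 counts, in diabetes replicate 3 and at 0 in the other diabetes libraries, a pattern that meets the rule at any level above 0. Summed anterior pituitary markers stood at 857 CPM in diabetes replicate 4, against 1.48 to 3.89 CPM in the other diabetes libraries. In the same library, blood markers summed to 1755 CPM against 264 to 469 CPM, and microglia markers to 417 CPM against 242 to 271 CPM.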

How the results depend on the processing

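The number of members called by edgeR, 0 in each of the 6 contrasts, was 0 under RLE scaling, the stricter filter and the replicate block. Without the low-count filter it was 1 in diabetes against control, 2 in curcumin against diabetes, 1 in garlic against diabetes and 1 in curcumin against control (468, 1128, 356 and 43 genes called in all). DESeq2 called 1 member in each of the 3 contrasts with diabetes, limma-voom 1 in diabetes against control and 1 in garlic against diabetes, and the fit of only the 2 groups compared 1 in diabetes against control (342 genes). In curcumin against diabetes, 1 was called with the covariate (376 genes), 2 without curcumin replicate 2 and diabetes replicate 4 (1076 genes), and 0 to 2 with single libraries left out (1975 genes without curcumin replicate 2). The causes were not tested.

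Changes of sign concerned differences smaller than their SE, except Ramp3 in curcumin against garlic. With the replicate block, curcumin against diabetes gave 0.057 for Ramp2 and -0.18 for Calcr, and garlic against diabetes 0.40 for Ramp3 and 0.076 for Calcrl. Whether the numbers pair the libraries was not settled: 5 of 15 same-numbered pairs had deviations correlated above 0.1 (range -0.274 to 0.434). Pairs with different numbers also passed 0.1, and the highest correlation of all, 0.534, was between control replicate 3 and garlic replicate 2. The 2 garlic libraries are mirror images in this check by construction, since each deviation is taken from their mean. With limma-voom, Calcr was -0.31 in curcumin against diabetes and Ramp3 0.070 in garlic against diabetes. With the covariate, Ramp3 was 0.43 in curcumin against garlic and 2.00 in diabetes against control, Ramp2 -0.045 in garlic against control, and Calca 0.60 in curcumin against control, -0.14 in garlic against control and 0.74 in curcumin against garlic. Without curcumin replicate 2 and diabetes replicate 4, Ramp3 was 0.16 in garlic against diabetes, Calcr 0.48 in curcumin against control and 0.44 in curcumin against garlic, and Calca 0.036 in curcumin against control. With single libraries left out, curcumin against diabetes ran from -0.59 to 0.089 for Ramp2 and -0.18 to 0.81 for Calcr. Garlic against diabetes ran from -0.74 to 0.12 for Ramp3 and -0.95 to 0.20 for Calcrl. Curcumin against control ran from -0.46 to 0.46 for Calcr, -0.0051 to 0.30 for Calcrl and -1.36 to 0.42 for Calca. Garlic against control ran from -0.14 to 0.36 for Ramp1, -0.073 to 0.13 for Calcr, -0.21 to 0.94 for Calcrl and -0.12 to 0.68 for Calca. Curcumin against garlic ran from -0.0024 to 0.57 for Ramp1, -0.50 to 0.41 for Calcr, -0.77 to 0.38 for Calcrl and -1.70 to 0.088 for Calca. The changes of Calcb and Adm, with at most 12 and 50 counts in any library, were not recomputed.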
